A study of Rattus norvegicus and Mus musculus with 24 samples.

Results

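Renal amino acid catabolism was followed through 45 enzyme genes, given as a list of names. All 45 were among the 17376 symbols of the mouse table, and 40 were among the 14931 symbols of the rat table. The libraries came from kidneys of Ctns knockout (KO) animals, which lack functional cystinosin, the carrier that exports cystine from lysosomes, and of their wild-type (WT) littermates. The mice (C57BL/6 background) were 4 Ctns KO animals, numbered 3, 5, 6 and 8, and 4 Ctns WT animals, numbered 1, 2, 4 and 7. The rats (Sprague-Dawley background) were 8 Ctns KO animals with even numbers and 8 Ctns WT animals with odd numbers, from 17 to 32, and they fall into the ranges 17 to 24 and 25 to 32 with 4 animals of each genotype in each. No treatment was given on the labels of any library, and what the number ranges stand for was not stated. Neither the labels nor the RNA sequencing methods gave the age or sex of these animals. Groups were matched for both by the general methods, a mouse tubule transcriptome with fewer animals is described elsewhere in the study as taken at 24 weeks, and the mice were female by its reporting form for all experiments and by its methods for cultures and mechanistic work. The labels name kidney cortex as the tissue and proximal tubule cells as the cell type, with a protocol for dissected tubules, while the methods name cortex. Markers of other kidney cell types were present, so the material was treated as cortex.

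The epithelium of the proximal tubule takes up nearly all filtered amino acids and breaks many of them down in its mitochondria and peroxisomes. It is a main site of guanidinoacetate synthesis (the first step to creatine), of arginine synthesis from citrulline, of tyrosine and hydroxyproline breakdown, and of the kynurenine pathway from tryptophan towards NAD. Cystine storage in cystinosis affects this segment first, and the comparison asks whether transcripts of these enzymes differ in Ctns KO kidneys.

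All listed members past the threshold were lower in Ctns KO kidneys, in both species. No member was higher (limma in mice, edgeR in rats), also with DESeq2, and at an unadjusted p under 0.05 that direction held 1 mouse and 0 rat members. In the rat, 26 of the 36 members tested were lower in Ctns KO kidneys (72.2%, edgeR's quasi-likelihood test, adjusted p under 0.05), against 12.3% of all symbols tested, and 15.2% of symbols were higher. In the mouse, 5 of 45 were lower (11.1%, limma), against 0.817% of all symbols, and 3.5% of symbols were higher. The mouse count was 1 to 3 without any 1 of the 8 mice and 10 with edgeR on recovered reads, against 2.85% of all symbols. DESeq2 on recovered reads gave 13, and its share of all symbols is not given. The median log2 fold change of the members was -0.38 in rats, against -0.02 over all symbols tested. In mice it was -0.12 on the log2(value + 1) scale, which understates changes of low genes, with the median of all symbols at 0.00. Of the 36 members tested in both species, 29 had a lower estimate in Ctns KO kidneys in both. The share of all symbols with that pattern was not worked out. In bulk tissue, fewer cells of a type and less RNA per cell cannot be told apart.

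All 13 proximal tubule marker genes of the mouse table and all 11 of the rat table were detected. Their summed level was 14857 to 21517 TMM-scaled CPM in Ctns WT rats and 10418 to 13757 in Ctns KO rats, without overlap, and 8 of 11 were lower (edgeR). In mice the sums were 355 to 459 scaled units in Ctns WT and 332 to 349.5 in Ctns KO kidneys, also without overlap, and no marker of 13 was past the threshold (limma). The lower level of members went along with a lower summed level of proximal tubule markers in both species, whose part in the result was not tested.

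**Figure D1:**
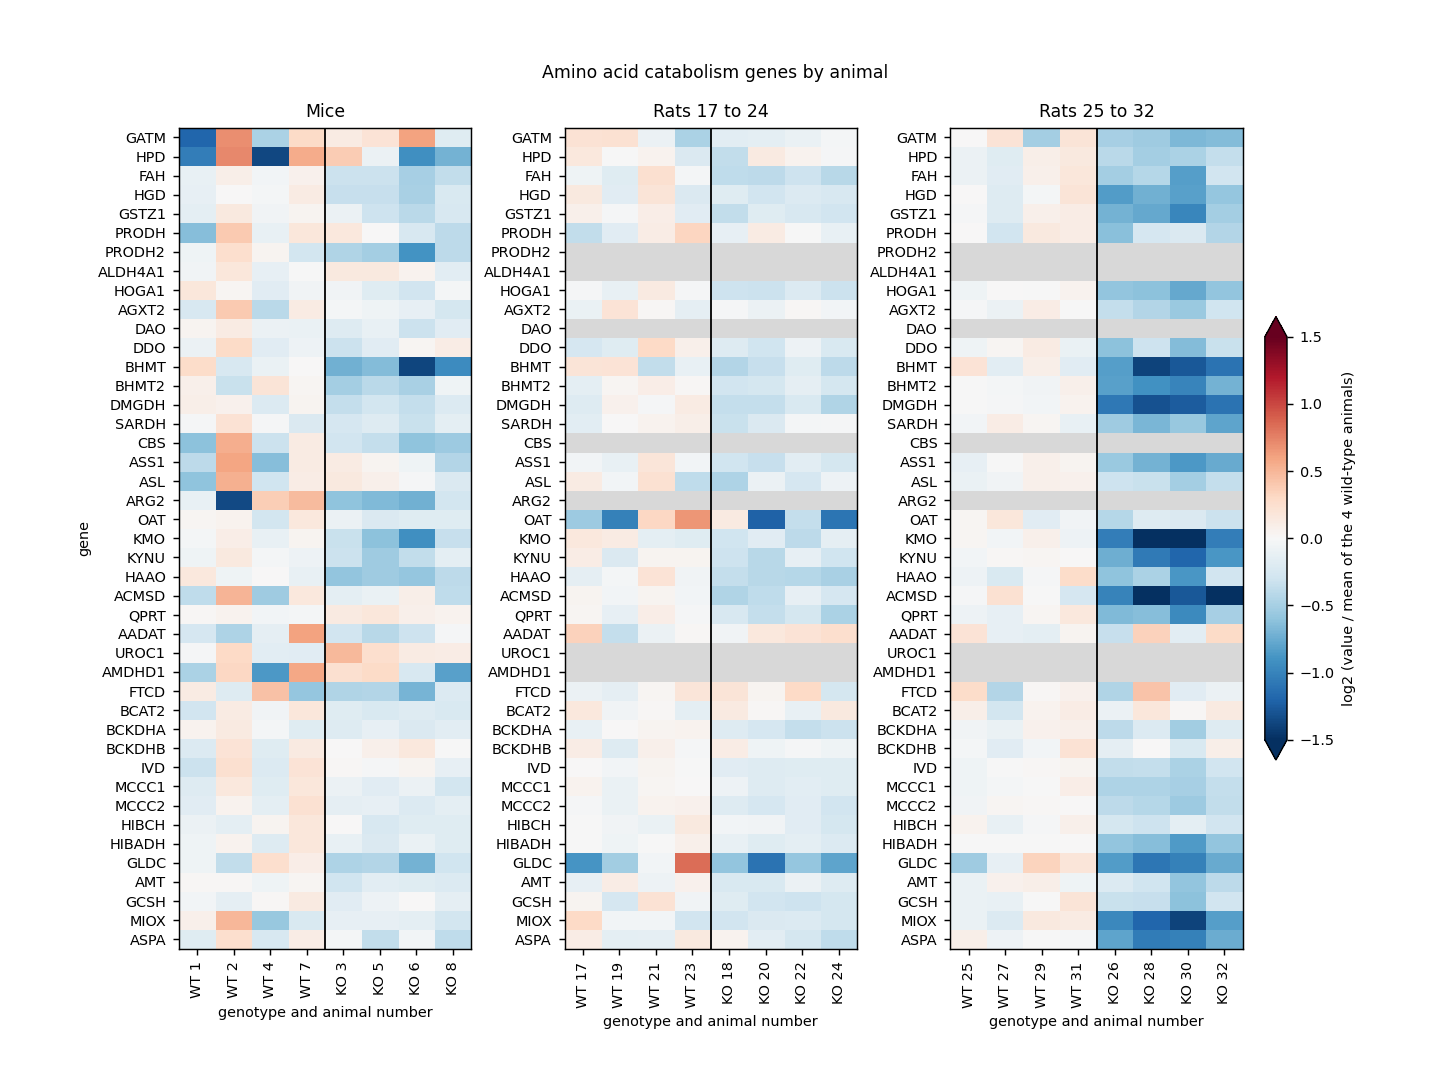
Level of each member in each animal, as the log2 ratio to the mean of the 4 Ctns WT animals of the same panel (mice, rats 17 to 24, rats 25 to 32), with blue lower and red higher. Values past the ends of the colour scale take the end colour, grey marks genes not tested in the rat, and AGXT and HAL are left out for lack of reads. The Ctns KO columns of rats 25 to 32 are the darkest blue, with medians of -0.66 to -0.42 per animal.

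Each Ctns KO animal, summarised by the median log2 ratio of its members to the Ctns WT mean, lay below every Ctns WT animal of its own set. In rats 25 to 32 these medians were -0.66 to -0.42 in Ctns KO and -0.08 to 0.06 in Ctns WT animals. Among rats 17 to 24 they were -0.26 to -0.17 in Ctns KO and -0.06 to 0.05 in Ctns WT animals. Mice had -0.21 to -0.15 in Ctns KO and -0.12 to 0.14 in Ctns WT kidneys, so the mouse groups came closest to each other. Of the 36 rat members, between 31 and 36 were below the Ctns WT mean in each Ctns KO rat, against 9 to 27 in Ctns WT rats. In mice these counts overlapped, at 31 to 40 of 43 members in Ctns KO and 9 to 35 in Ctns WT animals.

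The targeted gene was examined first. In mice CTNS was 0.824, 1.03, 0.878 and 0.944 scaled units in Ctns WT animals 1, 2, 4 and 7, and 0.342, 0.338, 0.319 and 0.331 in Ctns KO animals 3, 5, 6 and 8. The log2 fold change is given with its standard error (SE) throughout, and the groups did not overlap (log2 fold change -0.52 ± 0.03 SE on the log2(value + 1) scale, limma adjusted p = 0.000898). On recovered reads the CTNS log2 fold change was -1.48 ± 0.08 SE (edgeR adjusted p = 1.08e-07). In rats 17 to 24 CTNS was 19.2, 19.5, 20.2 and 22.6 TMM-scaled CPM in Ctns WT and 16.8, 18.7, 18.8 and 20.8 in Ctns KO animals, and in rats 25 to 32 it was 22.95, 27.8, 25.2 and 21.4 in Ctns WT and 22.2, 17.95, 20.4 and 17.4 in Ctns KO animals. The rat groups overlapped in both ranges, and over all rats the difference missed the threshold (log2 fold change -0.22 ± 0.08 SE, edgeR adjusted p = 0.0511). Within rats 25 to 32 it was past the threshold (-0.32 ± 0.11 SE, edgeR adjusted p = 0.0391), a call lost in 6 of the 8 fits that left out 1 animal, all but those without Ctns KO rat 26 or Ctns WT rat 31. The transcript level thus marked the genotype of each mouse but not of each rat, and rat genotypes were taken from the labels.

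The 5 members lower in both species belong to 4 routes. FAH and HGD act in tyrosine breakdown, HAAO in the kynurenine pathway, BHMT in the remethylation of homocysteine with betaine, and AMT in the glycine cleavage system. These were all of the mouse calls and 19.2% of the rat calls. In rats 72.2% of the members tested were lower, so most mouse calls would recur there at that rate. The share of all symbols lower in both species was not worked out. Each had Ctns WT and Ctns KO mice without overlap.

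FAH encodes fumarylacetoacetase, the last enzyme of tyrosine breakdown, and lies at chr7:84585159-84606722 on the minus strand of the mouse genome (GRCm38). Its scaled values were 7.68, 8.80, 8.08 and 8.65 in Ctns WT mice and 6.64, 6.62, 5.87 and 6.44 in Ctns KO mice. Every Ctns KO mouse was below every Ctns WT mouse (log2 fold change -0.33 ± 0.05 SE, limma adjusted p = 0.0201). In rats 17 to 24 it was 381, 351, 470.2 and 389 TMM-scaled CPM in Ctns WT and 305, 303, 322 and 299 in Ctns KO animals. Rats 25 to 32 had 291, 274, 325 and 346 in Ctns WT and 218, 230.4, 174 and 254 in Ctns KO animals. Genotypes did not overlap within either range, but the Ctns WT animals of the second range reached down to the level of the Ctns KO animals of the first. Over all rats the log2 fold change was -0.43 ± 0.13 SE (edgeR adjusted p = 0.0206).

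HGD, homogentisate dioxygenase, stands upstream of FAH in the same route (chr16:37580153-37632020, plus strand, GRCm38). Ctns WT mice had scaled values of 9.46, 10.4, 10.1 and 11.2 and Ctns KO mice 8.06, 8.08, 7.34 and 8.74. The mouse groups were separate (log2 fold change -0.32 ± 0.06 SE, limma adjusted p = 0.0411). Rats 17 to 24 had 397, 319.6, 409.5 and 309 TMM-scaled CPM in Ctns WT and 316, 294, 309.9 and 303 in Ctns KO animals. In rats 25 to 32 the Ctns WT values were 437, 379, 427 and 497 and the Ctns KO values 243, 264, 247 and 289.7. The genotypes overlapped in the first range and stood apart in the second, and over all rats the log2 fold change was -0.49 ± 0.09 SE (edgeR adjusted p = 0.00107).

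Of the other tyrosine enzymes, GSTZ1, the isomerase between HGD and FAH, was lower in rats (log2 fold change -0.46 ± 0.15 SE, edgeR adjusted p = 0.0286). Its call over all rats was lost in 7 of the 16 fits that left out 1 animal, those without Ctns KO rat 26, 28, 30 or 32 or Ctns WT rat 21, 29 or 31 (highest adjusted p = 0.0683, edgeR). HPD, which makes homogentisate, was not past the threshold over all rats (log2 fold change -0.19 ± 0.19 SE, edgeR adjusted p = 0.502) and was not past it in mice (limma adjusted p = 0.962). Within rats 25 to 32 HPD was lower (log2 fold change -0.43 ± 0.08 SE, edgeR adjusted p = 0.00181), without overlap. In mice HPD varied more within a genotype than between them, from 1.33 to 5.66 scaled units in Ctns WT and from 1.81 to 4.46 in Ctns KO animals.

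HAAO opens the ring of 3-hydroxyanthranilate on the way to quinolinate and NAD (chr17:83831156-83847963, minus strand, GRCm38). In mice it was 3.94, 3.37, 3.53 and 3.26 scaled units in Ctns WT and 2.34, 2.44, 2.35 and 2.69 in Ctns KO animals. No values overlapped (log2 fold change -0.39 ± 0.05 SE, limma adjusted p = 0.0129). The rat values in the first range were 219, 235, 277 and 233 TMM-scaled CPM in Ctns WT and 188, 180.5, 179 and 172 in Ctns KO animals. In the second range they were 337, 304, 352 and 429.6 in Ctns WT and 234, 256, 195 and 292 in Ctns KO animals. Genotypes were separate within each range, with the second range at the higher level in both genotypes, and over all rats the log2 fold change was -0.49 ± 0.15 SE (edgeR adjusted p = 0.0184). HAAO was the mouse call that held in all 8 fits leaving out 1 mouse.

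BHMT, betaine-homocysteine methyltransferase, returns homocysteine to methionine (chr13:93616675-93637961, minus strand, GRCm38). Scaled values were 1.18, 0.821, 0.901 and 0.975 in Ctns WT mice and 0.585, 0.618, 0.372 and 0.502 in Ctns KO mice. The Ctns KO mean was 53.6% of the Ctns WT mean (log2 fold change -0.37 ± 0.07 SE on the log2(value + 1) scale, limma adjusted p = 0.0339), and on recovered reads the log2 fold change was -0.93 ± 0.16 SE (edgeR adjusted p = 0.00846). In 5 of the 8 mice the value was not a whole number of reads, so reads on more than 1 gene or shared reads may be included. Rats 17 to 24 had 51.9, 52.3, 35.3 and 42.1 TMM-scaled CPM in Ctns WT and 33.5, 35.8, 39.9 and 34.7 in Ctns KO animals. Rats 25 to 32 had 140.4, 109, 129 and 108 in Ctns WT and 68.4, 46.6, 50.2 and 56.3 in Ctns KO animals. The genotypes overlapped in the first range and not in the second. For all rats together the log2 fold change was -0.87 ± 0.28 SE (edgeR adjusted p = 0.027), and this call was lost in 5 of 16 fits leaving out 1 animal, those without Ctns KO rat 18 or Ctns WT rat 25, 27, 29 or 31 (highest adjusted p = 0.0679, edgeR), and with limma-voom (adjusted p = 0.0635).

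AMT, the aminomethyltransferase of the glycine cleavage system (chr9:108296853-108302302, plus strand, GRCm38), had the smallest change of the 5. Its values were 2.22, 2.23, 2.09 and 2.23 scaled units in Ctns WT and 1.79, 1.97, 1.93 and 1.91 in Ctns KO mice. The tight groups did not overlap (log2 fold change -0.14 ± 0.03 SE, limma adjusted p = 0.0341). In rats 17 to 24 AMT was 192, 226, 198 and 219 TMM-scaled CPM in Ctns WT and 178, 178, 197 and 183 in Ctns KO animals, and in rats 25 to 32 it was 205, 229.9, 233 and 210.3 in Ctns WT and 191, 178, 146 and 167 in Ctns KO animals. Rats overlapped in the first range only, and over all rats the log2 fold change was -0.27 ± 0.06 SE (edgeR adjusted p = 0.00331). In mice the AMT call was lost in all 8 fits leaving out 1 animal, that of BHMT in 7 (all but Ctns WT mouse 2), that of HGD in 6 (all but Ctns WT mouse 1 and Ctns KO mouse 8) and that of FAH in 4 (Ctns KO mouse 5 or 6, Ctns WT mouse 4 or 7), with a highest adjusted p of 0.108 among them (limma).

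**Figure D2:**
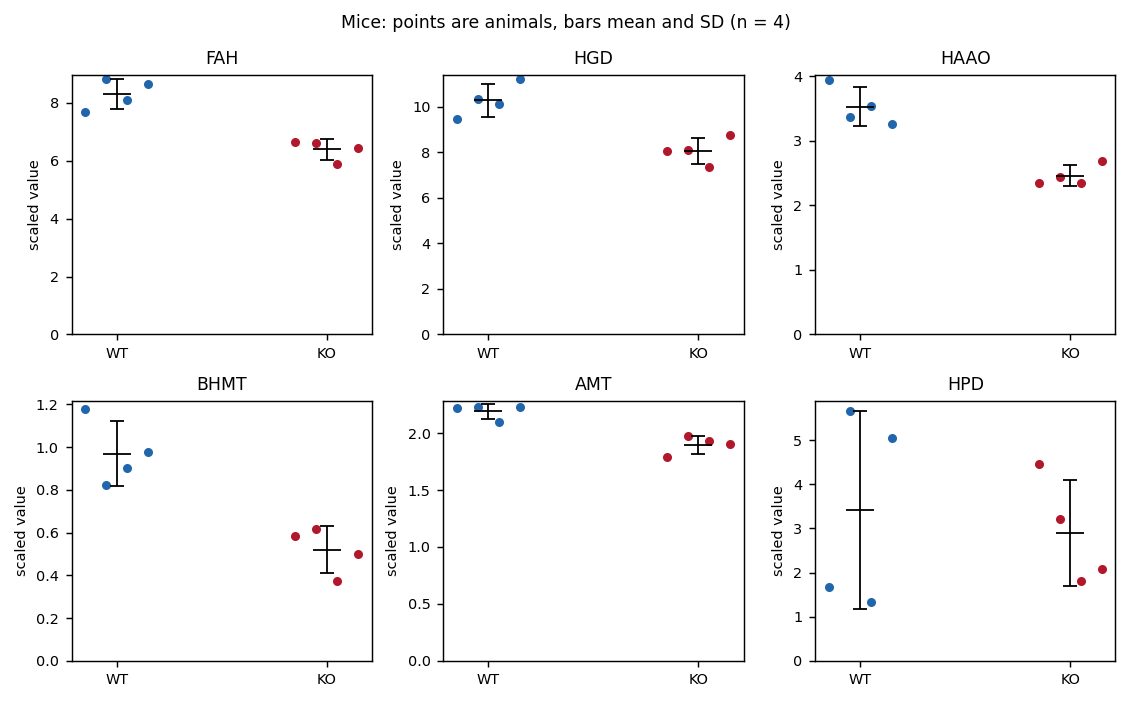
Scaled value (y axis, from 0) of the 5 members lower in both species, and of HPD, in each of 4 Ctns WT and 4 Ctns KO mice, with mean and SD as bars. The groups of FAH, HGD, HAAO, BHMT and AMT do not overlap, whereas Ctns WT mice spread from 1.33 to 5.66 for HPD.

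Including the 5 calls, 9 mouse members had all Ctns KO animals below all Ctns WT animals (20%), against 3.92% of all symbols. The other 4 were KMO, KYNU, PRODH2 and DAO. KMO, the kynurenine hydroxylase, was 4.02 ± 0.258 scaled units in Ctns WT and 2.78 ± 0.505 in Ctns KO mice (SD, n = 4 each) and missed the threshold (log2 fold change -0.42, limma adjusted p = 0.0638). PRODH2, which oxidises hydroxyproline and is not listed in the rat table, was 4.15 ± 0.633 in Ctns WT and 2.83 ± 0.418 in Ctns KO mice (SD, n = 4 each), with a log2 fold change of -0.42 (limma adjusted p = 0.0883). On recovered reads both were past the threshold (adjusted p = 0.0133 and 0.0214, edgeR), and that test called 10 of 43 members lower, against 2.85% of all symbols it tested, and 0 higher, against 6.06%. Mice carried large differences within genotype for several abundant members: among Ctns WT mice GATM, the first enzyme of creatine synthesis, was 11.9, 44.3, 19.6 and 33.2 in animals 1, 2, 4 and 7, and ASS1, which makes argininosuccinate, ranged from 25.5 to 59.6.

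The rat ranges were then compared. In rats 17 to 24, 11 of 36 members were lower in Ctns KO kidneys (30.6%, edgeR), against 2.19% of all symbols, and 5.07% of symbols were higher. In rats 25 to 32, 32 of 36 were lower (88.9%, edgeR), against 22.1% of all symbols, and 21.8% were higher. Genotypes did not overlap for 12 members of the first range, against 5.87% of symbols, and for 30 of the second, against 19.9%. All 11 calls of the first range were among the 32 of the second. The 11 were FAH, GSTZ1, HOGA1, BHMT2, DMGDH, HAAO, ACMSD, QPRT, BCKDHA, IVD and MCCC2, and the first range's count fell to 2 without Ctns KO rat 24, to 6 without Ctns KO rat 18 or 20 and to 7 without Ctns WT rat 21. Of the 36 members, 34 had a lower estimate in the second range, and the share of all symbols was not worked out. The difference in log2 fold change between the ranges had a median of -0.35 over members and -0.01 over all symbols tested (edgeR). The 4 members not called in the second range were AADAT, FTCD, BCAT2 and BCKDHB, with log2 fold changes of -0.06 to 0.06.

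A difference of the genotype effect between ranges was tested as an interaction. It was past the threshold for 16 of 36 members, all with the larger decrease in rats 25 to 32 (44.4%, edgeR), against 7.64% of all symbols with a lower and 7.1% with a higher estimate. They were HGD and GSTZ1 of the tyrosine route, HOGA1 and AGXT2 of glyoxylate metabolism, and BHMT, BHMT2, DMGDH and SARDH of betaine metabolism. The others were ASS1 of arginine synthesis, KMO, KYNU and ACMSD of the kynurenine pathway, MCCC1 and HIBADH of branched chain breakdown, MIOX and ASPA. No member of the glycine cleavage system passed. Of 11 proximal tubule markers 2 were lower in the first range and 10 in the second, and 5 passed this test with the larger decrease in the second. The 5 with the largest interaction are described next.

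**Figure D3:**
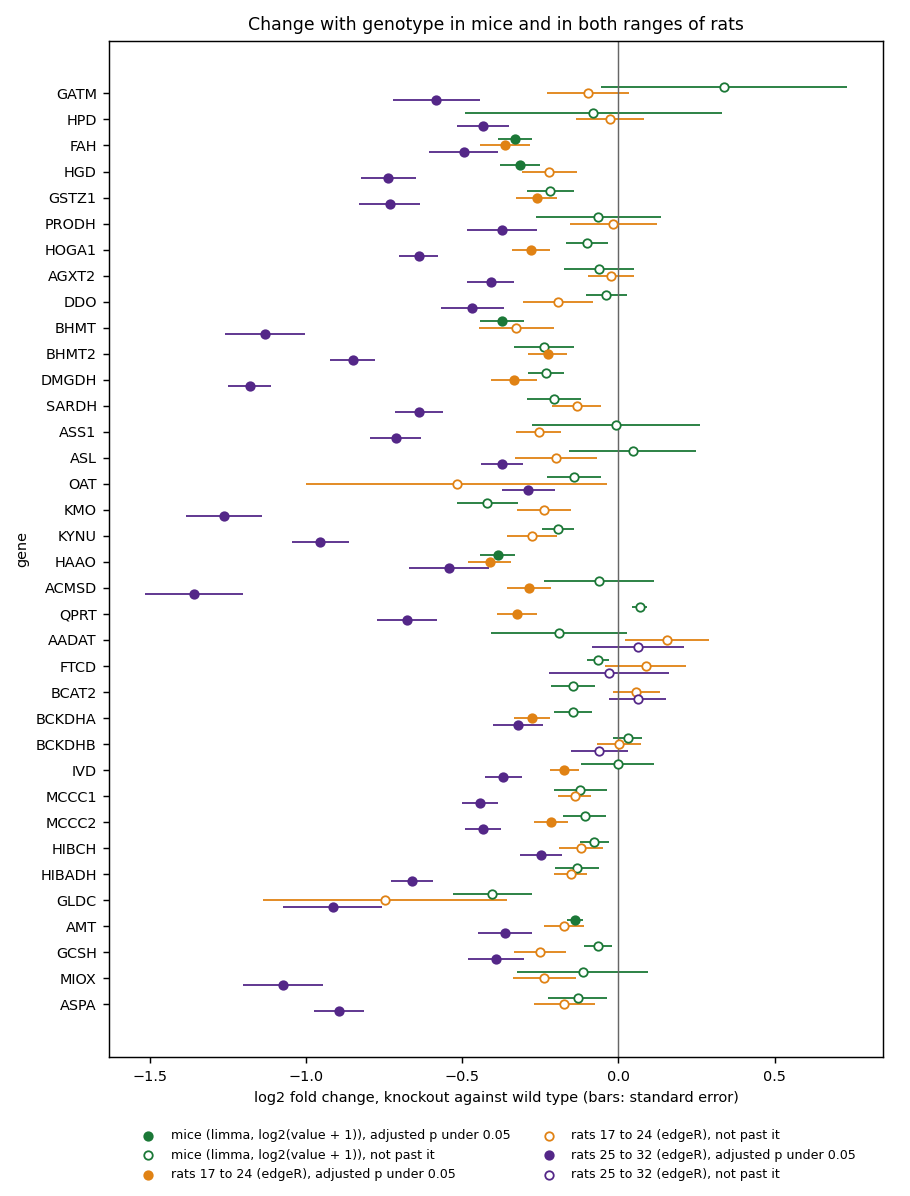
Log2 fold change of Ctns KO against Ctns WT kidneys (x axis) for the 36 members tested in both species (y axis), in mice (limma, log2(value + 1)) and in both rat ranges (edgeR), with standard errors as bars and filled points where the adjusted p was under 0.05. Purple points of rats 25 to 32 lie left of the orange points of rats 17 to 24 for 34 of 36 members, with ACMSD farthest at -1.36.

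ACMSD turns an intermediate of the kynurenine pathway away from NAD synthesis. In rats 17 to 24 it was 293, 277, 294 and 276 TMM-scaled CPM in Ctns WT and 208, 219, 262 and 239.5 in Ctns KO animals. The values in rats 25 to 32 were 343, 406, 346 and 292 in Ctns WT and 174, 117, 143 and 105 in Ctns KO animals. The genotypes were separate in both ranges, and the Ctns KO mean of the second range was 38.9% of its Ctns WT mean. The log2 fold change was -0.29 ± 0.07 SE (edgeR adjusted p = 0.0265) in the first and -1.36 ± 0.16 SE (edgeR adjusted p = 8.88e-05) in the second range, a difference of -1.07 ± 0.18 SE (edgeR adjusted p = 0.00162). In mice ACMSD was 2.61 ± 0.348 scaled units in Ctns KO and 2.84 ± 0.966 in Ctns WT kidneys (SD, n = 4 each), within the spread of the animals.

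KMO, kynurenine 3-monooxygenase, hydroxylates kynurenine. Ctns WT rats 17 to 24 had 329, 320.0, 266 and 259 TMM-scaled CPM and Ctns KO rats 238, 261, 224 and 266. Rats 25 to 32 had 303, 290.3, 314 and 283 in Ctns WT and 144, 106, 100.3 and 145 in Ctns KO animals. Ctns WT animals of the second range overlapped those of the first (log2 difference 0.00 ± 0.09 SE, edgeR adjusted p = 0.988), while only in the second range were the genotypes separate. The interaction was -1.02 ± 0.16 SE (edgeR adjusted p = 0.000917).

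DMGDH oxidises dimethylglycine, the product of the BHMT reaction. It was 219, 261, 249 and 274 TMM-scaled CPM in Ctns WT and 196, 196, 215 and 184 in Ctns KO rats 17 to 24. Those of rats 25 to 32 were 351, 347, 343 and 366 in Ctns WT and 167, 142, 148 and 163 in Ctns KO animals. No Ctns KO rat reached a Ctns WT rat of either range, and the interaction was -0.84 ± 0.10 SE (edgeR adjusted p = 0.000132). Here the Ctns WT level also differed between ranges, by 0.47 on the log2 scale (SE 0.07, edgeR adjusted p = 0.00152).

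MIOX, inositol oxygenase, takes the first step of inositol breakdown and is a gene of the proximal tubule. Rats 17 to 24 had 3984, 3148, 3131 and 2651 TMM-scaled CPM in Ctns WT and 2643, 2767, 2797 and 2685 in Ctns KO animals. Among rats 25 to 32 the values were 4106, 3832, 4904 and 4818 in Ctns WT and 2266, 1937, 1685 and 2495 in Ctns KO animals. The first range overlapped and the second did not, with the interaction at -0.83 ± 0.18 SE (edgeR adjusted p = 0.00601). BHMT, given by animal above, had an interaction of -0.80 ± 0.19 SE (edgeR adjusted p = 0.0114). Both genotypes had higher BHMT values in the second range than in the first, Ctns WT rats by more than Ctns KO rats.

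GLDC, the glycine decarboxylase, was among the 5 largest changes over all rats. Its values in rats 17 to 24 were 93.2, 119.5, 166 and 306 TMM-scaled CPM in Ctns WT and 113, 79.7, 114 and 99.0 in Ctns KO animals. In rats 25 to 32 they were 105, 139.7, 192 and 172 in Ctns WT and 85.2, 71.8, 75.1 and 90.1 in Ctns KO animals. The Ctns WT animals spread widely in the first range, where rat 23 was the highest, and the genotypes were separate in the second. Over all rats the log2 fold change was -0.83 ± 0.20 SE (edgeR adjusted p = 0.00547), and the interaction of -0.17 (standard error 0.41) was not past the threshold (adjusted p = 0.809, edgeR).

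**Figure D4:**
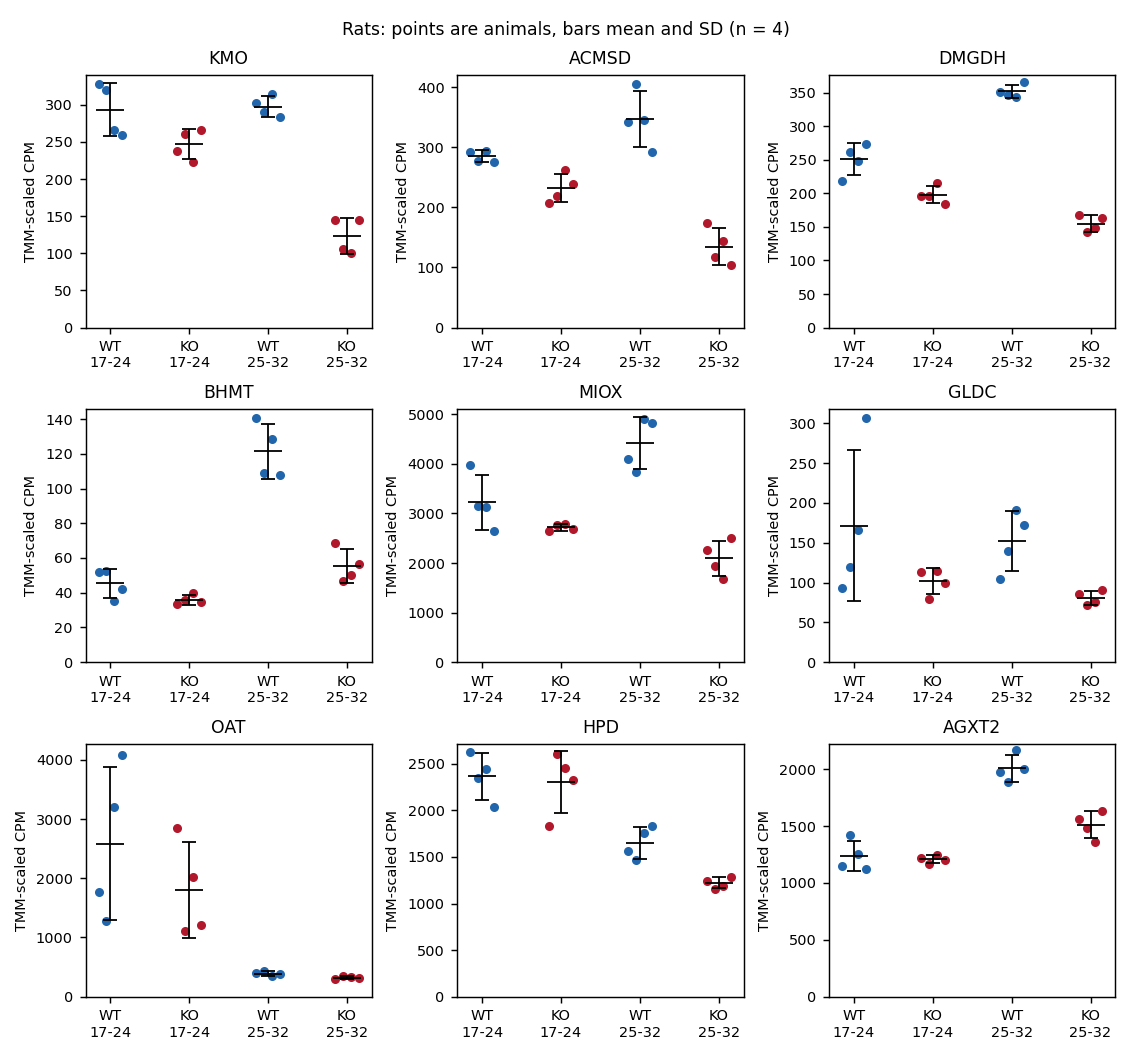
TMM-scaled CPM (y axis, from 0) of 9 members in each rat, by genotype and number range (4 animals in each column), with mean and SD as bars. KMO, ACMSD, DMGDH, BHMT and MIOX show a larger gap between genotypes in rats 25 to 32, whereas OAT differs mainly between the ranges.

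Ctns WT rats themselves differed between the ranges. Of 36 members, 13 were higher in Ctns WT rats 25 to 32 than in Ctns WT rats 17 to 24, against 8.79% of all symbols, and 4 were lower, against 9.54% (edgeR). The 13 included BHMT, FTCD, AADAT, AGXT2, GATM and HAAO, and the 4 were OAT, HPD, FAH and GSTZ1. BHMT was 268% of the first range's level (log2 difference 1.40 ± 0.13 SE, edgeR adjusted p = 9.77e-05). Proximal tubule markers moved with this: their sum was 14857 to 17833 TMM-scaled CPM in Ctns WT rats 17 to 24 and 19081 to 21517 in Ctns WT rats 25 to 32, with 5 of 11 higher (ANPEP, AQP1, SLC13A3, SLC22A6 and SLC22A8) and CUBN lower (edgeR). In the second range 3 of 5 distal nephron markers and 5 of 8 podocyte and endothelial markers were lower, and AQP3 was higher. Their part in the result was not tested. The count of lower members was 2 without Ctns WT rat 25, and it was the only leave-out that moved either count by over 1.5 times.

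OAT, ornithine aminotransferase, chosen here after its values were seen, had the highest ratio of highest to lowest animal among the members tested in rats. In rats 17 to 24 it was 1769, 1284, 3209.8 and 4086 TMM-scaled CPM in Ctns WT and 2849, 1116, 2014 and 1208 in Ctns KO animals. In rats 25 to 32 it was 400.3, 439.7, 349 and 377 in Ctns WT and 291, 344, 336 and 312 in Ctns KO animals. Each rat of the first range was above every rat of the second, whatever its genotype, and among Ctns WT rats the log2 difference was -2.75 ± 0.34 SE (edgeR adjusted p = 0.000964). The genotype effect over all rats was not past the threshold (log2 fold change -0.49 ± 0.63 SE, edgeR adjusted p = 0.592), while within rats 25 to 32 it was (log2 fold change -0.29 ± 0.09 SE, edgeR adjusted p = 0.0197). That second call was lost without Ctns KO rat 26 or Ctns WT rat 27 (highest adjusted p = 0.0609, edgeR).

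By role, and against 12.3% of all symbols lower and 15.2% higher over all rats, the kynurenine group had 5 of 6 members lower, with QPRT, which joins quinolinate to ribose phosphate, at -0.53 ± 0.11 SE (edgeR adjusted p = 0.00226). AADAT, a kynurenine aminotransferase, was the exception at 0.10 ± 0.21 SE (edgeR adjusted p = 0.768). All 4 betaine members tested were lower, including BHMT2 at -0.55 and SARDH, sarcosine dehydrogenase, at -0.37. In glycine cleavage all 3 subunits were lower, GLDC, AMT and GCSH (-0.32). Both MIOX and ASPA, which hydrolyses N-acetylaspartate (-0.50), were lower.

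Of 8 branched chain members, all but BCAT2 acting downstream of transamination, 5 were lower over all rats. They were BCKDHA (-0.30), IVD (-0.27), MCCC1 (-0.29), MCCC2 (-0.32) and HIBADH (-0.39). BCAT2, the mitochondrial transaminase, was at 0.05 (standard error 0.09) and BCKDHB, the partner subunit of BCKDHA, at -0.03 (standard error 0.06), neither past the threshold (adjusted p = 0.677 and 0.731, edgeR). BCKDHA and BCKDHB form 1 enzyme, and the difference between their changes was not tested. HIBCH was at -0.19 (adjusted p = 0.0848, edgeR). Outside the members, BCAT1, another branched chain transaminase, was higher over all rats (log2 fold change 1.45 ± 0.31 SE, edgeR adjusted p = 0.00254).

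Among the proline and glyoxylate members tested in rats, HOGA1, the last enzyme of hydroxyproline breakdown, was lower at -0.47 ± 0.06 SE (edgeR adjusted p = 7.91e-05), while PRODH and AGXT2 were past the threshold in rats 25 to 32 but not over all rats (adjusted p = 0.353 and 0.2, edgeR). The PRODH call of that range was lost without Ctns KO rat 32 or Ctns WT rat 29 (highest adjusted p = 0.0607, edgeR). HOGA1 was 617 ± 61.7 TMM-scaled CPM in Ctns WT and 446 ± 27.7 in Ctns KO rats (SD, n = 8 each), without overlap over all 16 rats. Such a separation over all rats held for 7 members, against 1.95% of symbols, the others being DMGDH, ASS1, ACMSD, BCKDHA, IVD and HIBADH. ASS1 was lower at -0.50 ± 0.09 SE (edgeR adjusted p = 0.00056) and ASL, which releases arginine, at -0.30 ± 0.09 SE (edgeR adjusted p = 0.0268). The ASL call was lost in 5 of 16 fits leaving out 1 animal, those without Ctns KO rat 18 or 30 or Ctns WT rat 25, 29 or 31 (highest adjusted p = 0.07, edgeR). DDO, D-aspartate oxidase, was lower at -0.33 ± 0.09 SE (edgeR adjusted p = 0.00859).

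GATM, with 2936 ± 881 TMM-scaled CPM in Ctns WT and 2263 ± 158 in Ctns KO rats (SD, n = 8 each), was not past the threshold over all rats (log2 fold change -0.38 ± 0.15 SE, edgeR adjusted p = 0.0712). It was past it without Ctns WT rat 21 or 23, with DESeq2 and once the number range entered the fit. That fit, which called 30 members lower, also added HPD, AGXT2 and HIBCH (adjusted p = 0.0437, 0.0232 and 0.00657, edgeR), but not PRODH or OAT (adjusted p = 0.127 and 0.139). Within rats 25 to 32 GATM was lower (log2 fold change -0.58 ± 0.14 SE, edgeR adjusted p = 0.0072).

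Not every member could be followed in rats. PRODH2, ALDH4A1, DAO, CBS and ARG2 had no row of that name in the rat table. AGXT, HAL, UROC1 and AMDHD1 had 0 or 1 read in every rat and were not tested, and FTCD, the remaining histidine enzyme, was at 0.01 ± 0.22 SE (edgeR adjusted p = 0.977). In mice HAL and AGXT had at most 3 reads, while UROC1 had 2065 to 3393 reads without a call.

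A difference between species in the genotype effect was tested on a common scale, with rat reads scaled like the mouse values. No member passed (limma), against 3.17% of symbols in either direction, and 4 had an unadjusted p under 0.05, QPRT, HOGA1, DMGDH and ACMSD, each with the lower estimate in rats. The alternative edgeR test on reads called 0 as well. QPRT was nearest the threshold (difference -0.40, standard error 0.12, adjusted p = 0.062, limma), and it passed without Ctns KO rat 32 or Ctns WT rat 17, 19 or 23, while HOGA1 passed without Ctns WT rat 19. CTNS itself differed, by 0.47 (SE 0.04, limma adjusted p = 1.4e-07), being the more reduced in mice, on the log2(value + 1) scale that gave the smaller of its 2 mouse estimates.

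The wider pathways were followed through 110 other genes in 10 lists. In rats 51 of 87 tested were lower and 9 higher (edgeR), against 12.3% and 15.2% of all symbols. In mice 6 of 108 were lower and 0 higher (limma), against 0.817% and 3.5%. By list in rats, lower and higher were 1 and 1 of 2 other creatine genes, 3 and 0 of 4 other tyrosine and phenylalanine genes, 3 and 2 of 7 other proline and glyoxylate genes, 11 and 0 of 19 other one-carbon and sulfur genes, and 4 and 0 of 9 other arginine and polyamine genes. They were 6 and 0 of 6 other tryptophan, NAD and lysine genes, 8 and 1 of 14 other branched chain genes, 5 and 0 of 7 other glycine and serine genes, 7 and 2 of 10 inositol and glucuronate genes, and 3 and 3 of 9 regulators. The tryptophan list was thus lower throughout, and the lists of regulators and creatine genes were split.

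Lower in both species among these genes were SRR, SLC25A15, MTHFD1, AFMID and PCCB. AFMID, which frees kynurenine from formylkynurenine, was 227 ± 66.7 TMM-scaled CPM in Ctns WT and 139 ± 10.6 in Ctns KO rats (SD, n = 8 each), with a log2 fold change of -0.71 (edgeR adjusted p = 0.00172). SLC25A15, the mitochondrial ornithine carrier, was 4.01 ± 0.0837 scaled units in Ctns WT and 3.30 ± 0.169 in Ctns KO mice (SD, n = 4 each), with a log2 fold change of -0.22 (limma adjusted p = 0.0151). SRR makes D-serine, MTHFD1 interconverts folates and PCCB is a subunit of propionyl-CoA carboxylase. The 3 largest changes in rats were increases, of HAO1 (1.86), TRIB3 (1.74) and CHAC1 (1.59) on the log2 scale (adjusted p = 0.0274, 0.000673 and 0.00353, edgeR). HAO1 makes glyoxylate from glycolate, and TRIB3 and CHAC1 are known targets of the amino acid response. TRIB3 and CHAC1 were not past the threshold in rats 17 to 24 (0.65 and 0.42, adjusted p = 0.0918 and 0.601, edgeR) and were higher in rats 25 to 32 (2.48 and 2.41, adjusted p = 1.86e-05 and 5.03e-05, edgeR). HAO1 was higher in both (2.98 and 1.67, adjusted p = 1.23e-05 and 0.000151, edgeR), and Ctns WT rats alone differed by 3.18 between the ranges (edgeR adjusted p = 5.96e-05).

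HNF4A, a transcription factor of the differentiated proximal tubule that was picked from the regulator list after its values were seen, was lower in Ctns KO rats (log2 fold change -0.69, edgeR adjusted p = 0.00116). It had the larger decrease in rats 25 to 32 (interaction -0.82, edgeR adjusted p = 0.00537). In mice it was not past the threshold (limma adjusted p = 0.1). Promoters of 36 members were matched by symbol in RefSeq (rat GRCr8, 250 bases before to 50 after the start) and searched on both strands for a HNF4 motif (CAAAGTCCA), the TATA box by its letters TATAAA and the GC box by its letters GGGCGG. The 36 with a window are not the same as the 36 members tested in rats. Among those tested, ACMSD, BHMT2, DMGDH, BCKDHA, MCCC2 and PRODH had no window and were not searched. AGXT, ALDH4A1, CBS, DAO, PRODH2 and UROC1 had a window but no rat test. The HNF4 letters were in 2 of the 36 searched, AGXT2 and KMO, against 0.391% of 33469 promoters. The TATA letters were in 8, against 14.2%, and the GC letters in 15, against 33.1%.

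Of these windows 4 are shown, with motif letters in capitals, because their genes carry the patterns above: KMO and AGXT2 hold the HNF4 letters and differ in the size of their change, MIOX holds TATA letters, and OAT, with 2 GC boxes next to each other, had the range difference. They are chr13:90089271-90089570 (plus strand) for KMO, chr2:61063166-61063465 (plus) for AGXT2, chr7:122284410-122284709 (plus) for MIOX and chr1:196797705-196798004 (minus) for OAT, each read 5′ to 3′ along its gene.
KMO: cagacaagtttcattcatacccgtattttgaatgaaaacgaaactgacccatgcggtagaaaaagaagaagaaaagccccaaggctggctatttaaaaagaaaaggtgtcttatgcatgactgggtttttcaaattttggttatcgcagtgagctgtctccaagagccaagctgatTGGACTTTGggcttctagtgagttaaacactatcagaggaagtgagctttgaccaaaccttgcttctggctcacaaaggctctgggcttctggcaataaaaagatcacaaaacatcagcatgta
AGXT2: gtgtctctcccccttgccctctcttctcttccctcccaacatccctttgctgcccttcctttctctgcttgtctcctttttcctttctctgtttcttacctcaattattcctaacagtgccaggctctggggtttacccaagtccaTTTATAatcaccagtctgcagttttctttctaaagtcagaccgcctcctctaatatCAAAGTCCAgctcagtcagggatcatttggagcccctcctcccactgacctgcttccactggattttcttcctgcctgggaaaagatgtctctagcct
MIOX: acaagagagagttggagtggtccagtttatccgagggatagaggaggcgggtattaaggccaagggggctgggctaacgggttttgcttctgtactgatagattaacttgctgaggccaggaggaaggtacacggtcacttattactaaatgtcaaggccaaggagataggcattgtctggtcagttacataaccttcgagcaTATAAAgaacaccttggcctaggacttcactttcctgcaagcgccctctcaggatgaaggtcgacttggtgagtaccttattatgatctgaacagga
OAT: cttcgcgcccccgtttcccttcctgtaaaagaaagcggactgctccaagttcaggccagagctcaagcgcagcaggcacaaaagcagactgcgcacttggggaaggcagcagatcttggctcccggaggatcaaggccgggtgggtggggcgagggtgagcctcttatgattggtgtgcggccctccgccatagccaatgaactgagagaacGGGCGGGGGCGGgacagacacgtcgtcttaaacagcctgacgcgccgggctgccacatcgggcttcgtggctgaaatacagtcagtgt
The capitals of KMO begin 74 bases and those of the HNF4 motif of AGXT2 48 bases before the start. In Ctns KO rats 25 to 32 KMO fell by 1.26 on the log2 scale (adjusted p = 3.03e-05, edgeR) and AGXT2 fell by 0.41 (adjusted p = 0.00167, edgeR). A match of letters is a description of the window and not a site of binding.

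Markers of other cells moved with genotype as well. Tubular injury markers were higher for 9 of 10 genes in rats (summed 709 to 886 TMM-scaled CPM in Ctns WT, 1529.6 to 6729.6 in Ctns KO) and for 5 of 10 in mice. In the second range, where the members were lower in larger number, the Ctns KO sum was 4626 to 6729.6, against 1529.6 to 2209.6 in the first. Macrophage markers were higher for 8 of 10 genes in rats and 6 of 10 in mice, lymphocyte markers for 6 of 7 and 1 of 9, and fibroblast and matrix markers for 7 of 7 and 5 of 9. Distal nephron markers were higher for 2 of 5 and 1 of 9, and podocyte and endothelial markers for 0 of 8 and 0 of 9. Of the podocyte and endothelial markers 3 were lower in rats 25 to 32 (EMCN, KDR and PODXL), where their sum was 828 to 962 in Ctns WT and 658 to 796 in Ctns KO animals. Hepatocyte markers, which bear on the liver enzymes in the list, were higher for 1 of 3 in rats (FGB) and 0 of 8 in mice. In rats 25 to 32 their sum was 603 to 766 in Ctns WT and 273 to 399 in Ctns KO animals, with CYP2E1 lower (log2 fold change -1.07, edgeR adjusted p = 0.000143) and FGB and SERPINA1 higher. What part these cells had in the members' levels was not tested.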

How the data were processed

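Bulk RNA sequencing of kidney (TruSeq Stranded mRNA, 100 ng RNA, paired reads of 100 nucleotides) was analysed per animal. The submitters' notes name bcl2fastq 2.20, STAR 2.7.3, DESeq2 1.24.0, R 3.6.1 and the builds mm10 and rn5. Counting and the mapping to human-style symbols are not given in the sources used here, and 1 symbol can therefore cover more than 1 rodent gene. The mouse file as deposited holds a scaled signal, (reads + 0.5) over the 75th percentile + 0.5 (worked out from the values, 99.0% whole reads within 0.01). The rat file as deposited holds expected counts, reads + 1/6, which was removed before rounding (97.7% whole). Libraries held 19309449 to 44449859 reads. In R 4.3.3, mice were tested with limma 3.58.1 (log2(value + 1), trend, robust, no filter), rats with edgeR 4.0.16 (quasi-likelihood, TMM, filterByExpr), with Benjamini-Hochberg adjustment over all symbols and a threshold of 0.05. edgeR standard errors are approximated from the F statistic. Rat levels are TMM-scaled CPM. The labels do not say that animals of a group are more than separate samples, and number ranges are unexplained. Tests recovered known changes in simulated data. Members, gene lists and tests were chosen with earlier results of these data known. Values in every animal were given for CTNS, members called in both species, and, among members past the threshold, the 5 largest changes in mouse, rat and interaction. Alternatives were DESeq2 1.42.0, other normalization, filters and pseudocounts, a range covariate, limma-voom and leaving out each animal.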

Additional observations from a re-analysis of the deposited data

Results flagged for a closer look

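The effect of genotype differed between rats 25 to 32 and rats 17 to 24 for 16 members (edgeR interaction, adjusted p under 0.05). Each had the larger decrease with genotype in the second range. The differences on the log2 scale were -1.07 for ACMSD, -1.02 for KMO, -0.84 for DMGDH, -0.83 for MIOX, -0.80 for BHMT, -0.72 for ASPA, -0.68 for KYNU and -0.62 for BHMT2. They were -0.51 for HGD, -0.50 for HIBADH, -0.50 for SARDH, -0.47 for GSTZ1, -0.45 for ASS1, -0.38 for AGXT2, -0.35 for HOGA1 and -0.30 for MCCC1. The effect on CTNS differed between species by 0.47 (limma interaction, adjusted p = 1.4e-07).

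In 7 of 236 groups of 4 animals, 1 animal stood apart by Dixon's criterion, and chance gives about 5% of groups. HOGA1 was highest in Ctns KO rat 22 of the first range (492 TMM-scaled CPM) and lowest in Ctns KO rat 30 of the second (392). BHMT2 was highest in Ctns KO rat 22 (382). In mice DMGDH (3.68 scaled units) and AMT (2.09) were lowest in Ctns WT mouse 4, KYNU was highest in Ctns WT mouse 2 (1.67), and MIOX was lowest in Ctns KO mouse 8 (43.7).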

How the results depend on the processing

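No member changed direction past a threshold under any alternative tried. No paired analysis was possible because the labels give no litter or other pairing of the animals. The mouse count of lower members was 5 with limma and with a pseudocount of 0.1, 9 with a filter on mean scaled values of at least 0.05, 10 with edgeR on recovered reads (also 10 with DESeq2 size factors) and 13 with DESeq2. With each mouse left out it was 1 to 3. In rats it was 25 (limma-voom) to 30 (range covariate, against 19.4% of all symbols), and 23 to 27 with each rat left out. For rats 17 to 24 these were 11 to 15 and 2 to 12, for rats 25 to 32 they were 32 and 31 to 32, for the interaction 16 to 20 and 15 to 17, and for the species difference 0 and 0 to 2. Among Ctns WT rats 10 to 12 members were higher and 2 to 4 lower with 1 animal left out. The causes were not tested. Calls in mice other than that of HAAO, and most calls in rats 17 to 24, depended on single animals. Over all rats the calls of GSTZ1, BHMT and ASL did so, and in rats 25 to 32 those of 2 members, PRODH and OAT. A p that misses the threshold does not show equal levels.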
